A study of Danio rerio with 10 samples.

Results

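Blastula embryos of the zebrafish exposed to benzo[a]pyrene (BaP) were compared with control blastulae at 3.3 hours post fertilization (hpf). Every gene listed in the Ensembl gene table of this age entered the comparison, which gave 14236 genes of the 20346 listed at either age of the series. RNA had been sequenced from 3 control and 3 BaP libraries, which are 6 of the series' 10 libraries, and the other 4 came from larvae. All 6 libraries were made from pooled whole embryos of the AB line. The BaP group was exposed to 50 µg/L BaP, and the control group is labelled only with 0.1 mL/L, without the substance. Nothing in the labels ties the replicates to separate clutches, and p-values therefore measure only the spread between these libraries, which may be technical.

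An early zebrafish embryo runs on RNA and protein that its mother loaded into the egg, while its own genome is silent. Around the blastula stage the embryo's genome is switched on by maternal transcription factors, chiefly Pou5f1 (Pou5f3 in current naming), Nanog and SoxB1 proteins, and maternal transcripts are deadenylated and degraded. The amount of newly made zygotic RNA therefore changes steeply within a short time at this stage. BaP, a combustion product of several fused aromatic rings, is a ligand of the aryl hydrocarbon receptor (AhR), which then pairs with Arnt and switches on cytochrome P450 genes of family 1. These enzymes turn BaP into products that can damage DNA.

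Library depth, as reads assigned to listed genes, ranged from 17.5 to 18.3 M in the controls and from 20.6 to 22.2 M in the BaP libraries, so every BaP library was the deeper. Its part in the results was not tested. The stage label fitted the markers. None of the listed names for muscle, blood, lens and retina, liver and pancreas, or ovary somatic cells and sperm was in the table. Present were 9 germ plasm genes from 8 names looked for, 6 enveloping layer genes from 11 and 2 yolk syncytial layer genes from 7. The summed level of the germ plasm markers ranged from 1790 to 2334 CPM (read counts expressed relative to an equal total in every library, with no correction for gene length) in controls and from 1638 to 1934 CPM in BaP libraries. The summed enveloping layer level ranged from 316 to 796 CPM in controls and from 730 to 1066 CPM in BaP libraries, and the yolk syncytial sum from 1.54 to 31.0 CPM and from 1.6 to 55.2 CPM. The enveloping layer sum was highest in BaP 1, where the median over its 6 genes, each relative to its own mean, was lowest (-1.55 on the log2 scale). Their median log2 difference, BaP minus control, was 1.01, and it was -0.22 without BaP replicate 2.

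No gene passed the test for a difference between BaP and control, yet several families of maternal genes lay on 1 side of it almost throughout. Of 84 nuclear genes of oxidative phosphorylation, 80 had a log2 difference below 0, where 50.8% of all genes did. The median over the 84 was -0.27. Genes of mitochondrial ribosomes and of the proteasome were also mostly lower. Genes of chromatin regulation, splicing and messenger RNA decay were mostly higher, by small amounts. The RNA that the embryos had begun to make themselves differed far more between libraries of the same group than between the groups.

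With limma and Benjamini-Hochberg adjustment over 14236 genes, 0 genes had an adjusted p under 0.05, and the smallest adjusted p was 0.907. At an unadjusted p under 0.05 there were 343 genes higher in BaP (2.41% of those tested) and 342 lower (2.4%), and with CPM as deposited, without rescaling, the split was 220 higher and 476 lower. Leaving out BaP replicate 1 raised the unadjusted count from 685 to 1203. Leaving out BaP replicate 2 gave 1 called gene, CCBL2 (1 of 4), at an adjusted p of 0.0421 by limma, a kynurenine aminotransferase copy that may share reads with its paralogs. It was at 15.8, 21.97 and 13.3 CPM in controls, at 12.4 CPM in BaP 2 and listed at effectively 0 in BaP 1 and BaP 3. In the RefSeq gene table, with 9548 genes, 0 genes passed either, the smallest adjusted p was 0.88, and 246 genes were higher (2.58%) and 240 lower (2.51%) at an unadjusted p under 0.05.

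The 95% interval of the difference lay within 2-fold either way for 10075 genes (70.8%), and for 9169 of the 11183 genes with a mean above 5 CPM. Differences of that size could be bounded for most genes, while 1.5-fold could be bounded for 5648 genes (39.7%). For 1618 genes (11.4%) the groups did not overlap, that is, all 3 BaP libraries lay on the same side of all 3 controls. Of these, 801 were higher in BaP (5.63%) and 817 lower (5.74%). A log2 difference above 1 in size was reached by 301 genes (2.11%). BaP libraries differed more from each other than controls did, since the within-group SD was wider in BaP for 9014 genes and in controls for 5222, with medians of 0.25 and 0.19 on the log2 scale.

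The embryo's own early RNA differed widely between libraries. A list of 63 early zygotic genes, of 115 names looked for, had a mean log2 level relative to all 6 libraries of 0.99, -1.50 and -0.35 in control replicates 1 to 3 and of -1.33, 2.18 and 0.00 in BaP replicates 1 to 3. Control 2 and BaP 1 were the low libraries, BaP 2 and control 1 the high ones, and the groups overlapped widely. In control 2, 33 of the 63 genes were under 1 CPM, against 0 in BaP 2. Only genes above 1 CPM in at least 3 libraries were listed. That filter favors genes present in the libraries with most early zygotic RNA, so these counts are partly set by it.

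Tbx16, a T-box factor of the early mesoderm, was at 2.48, 0.0550 and 0.00 CPM in the controls and at 0.00, 99.1 and 1.12 CPM in the BaP libraries. Aplnrb, an apelin receptor needed for heart progenitors, was at 36.1, 0.0550 and 1.48 CPM and at 0.15, 141 and 4.79 CPM. Asb11, a component of a ubiquitin ligase, was at 7.56, 0.00 and 0.165 CPM and at 0.00, 93.6 and 2.68 CPM. In each of these genes BaP 2 was highest, control 1 was second, and control 2 and BaP 1 were at or near 0. They had the widest range on the list. Their log2 differences of 2.2 ± 1.83 (tbx16), 1.2 ± 2.14 (aplnrb) and 1.93 ± 1.90 (asb11, SE, n = 3 per group) did not pass, and leaving out BaP replicate 2 turned them to -0.06, -0.89 and -0.14.

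**Figure D1:**
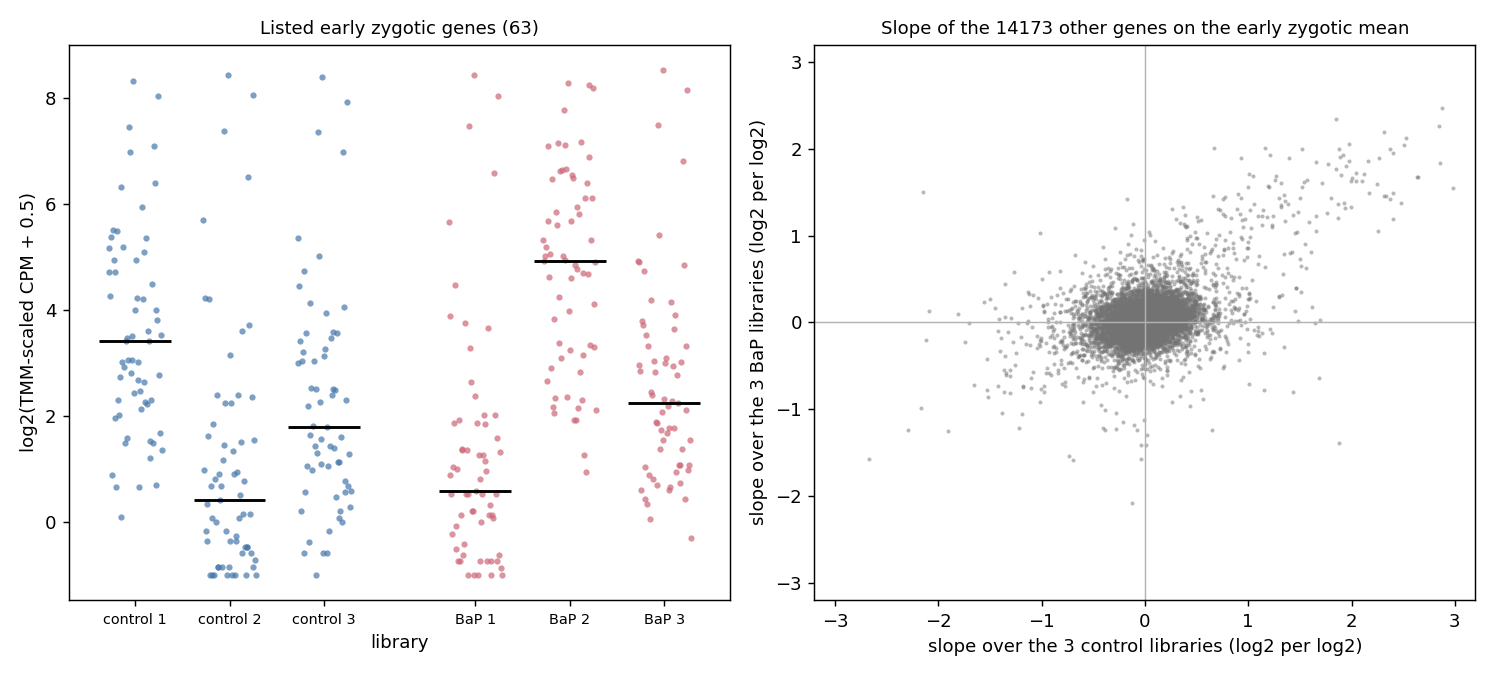
The left panel plots log2 of scaled CPM plus 0.5 for each of 63 listed early zygotic genes in each of 6 libraries, with a black line at the median of a library. The right panel plots, for 14173 other genes, the slope of their log2 level on the early zygotic mean over 3 control libraries against that over 3 BaP libraries. BaP 2 and control 1 stand high and control 2 and BaP 1 low on the left. Genes with steep positive slopes in both groups lie in the upper right corner. For 22 genes, slopes beyond 0.5 in size in both groups have opposite signs.

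Over the whole early zygotic list, 48 genes were above and 15 below 0, where 49.2% of all genes were above. At an unadjusted p under 0.05 by limma, 1 gene was higher (1.59%, against 2.41% of all genes) and 0 were lower (against 2.4%). The median log2 difference was 0.50, against 0.00 over all genes. It was -0.39 without BaP replicate 2 and 1.40 without BaP replicate 1, so the direction rested on single libraries. With the early zygotic mean as a covariate it was -0.03. That mean is taken over these same genes, so the fit sets their average difference to 0 in advance. Dact2, a regulator of Nodal and Wnt signaling, had the smallest p of the list. It was at 2.31, 1.38 and 7.69 CPM in controls and at 13, 18.5 and 7.74 CPM in BaP libraries, which did not overlap by a narrow margin, for a log2 difference of 1.87 ± 0.58 with an adjusted p of 0.907 by limma. Its slope on the early zygotic mean was 0.19. Of the next genes by p, the Wnt receptor fzd8b had a log2 difference of -0.77 ± 0.37 and the epithelial-mesenchymal transition factor snai1a one of 0.18 ± 0.10, and neither passed.

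Not every gene of that list swung with the others. Otx1b, a homeobox factor of the anterior brain, was at 318, 347 and 336 CPM in controls and at 345, 312 and 370 CPM in BaP libraries. Fzd7b, a Wnt receptor, was at 264, 265 and 244 CPM and at 264, 292 and 286 CPM. Both are the listed genes with the highest CPM, their groups overlapped, and RNA was present at a like level in the libraries where tbx16 was at 0. Their slopes on the early zygotic mean were -0.05 and 0.03.

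In a fit with group and early zygotic mean together, 118 of 14173 genes outside the list had a positive slope at an adjusted p under 0.05 by limma (0.833%) and 15 had a negative one (0.106%). Examples were chosen after their values were seen. The Gata factor gata3 was at 12.1, 0.110 and 0.659 CPM in controls and at 0.100, 51.4 and 3.27 CPM in BaP libraries, with a slope of 1.81 and an adjusted p of 0.00467. The chemokine receptor cxcr4b (slope 1.55), the MAP kinase phosphatase dusp6 (1.75) and the scaffold akap12b (2.18) were also highest in BaP 2 and second in control 1, with control 2 and BaP 1 lowest. Maternal RNAs were among the negative slopes. Parn, a poly(A)-specific ribonuclease, was at 745, 967 and 802 CPM in controls and at 903, 560 and 813 CPM in BaP libraries, highest where early zygotic RNA was lowest, with a slope of -0.18 and an adjusted p of 0.0343. Zorba, a CPEB-type RNA-binding protein of the oocyte, had a slope of -0.36 with an adjusted p of 0.00960.

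Slopes were also fitted in each group on its own. Where they were beyond 0.5 in size in both groups, they were both positive for 170 genes, both negative for 48 and opposite for 22. Signs of smaller slopes were not counted. Across these 14173 genes, which are not independent replicates, the 2 slopes had a Pearson r of 0.478. With the early zygotic mean as a covariate, 0 genes differed between BaP and control at an adjusted p under 0.05 by limma, the smallest adjusted p was 0.772, and 376 genes were higher (2.64%) and 450 lower (3.16%) at an unadjusted p under 0.05.

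The 43 gene families were described by counts, by their median difference and by their median in each library. The library medians did not overlap between groups for 11 families, of which 5 were higher and 6 lower in BaP. They also did not overlap in the shortest, longest and next to longest class by genomic span and in the middle class by level. Those classes, described below, are not functional classes. All families were read from the same libraries, so the 11 are not independent results. For single genes, the groups did not overlap in 11.4%. How many families would separate by chance was not tested. In 24 families the median kept its sign under every alternative tried. Blocking by replicate number and a robust or trend-free spread could not change a median, as they leave the log2 differences as they are. Since no gene passed the test, 0 families had one that did.

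**Figure D2:**
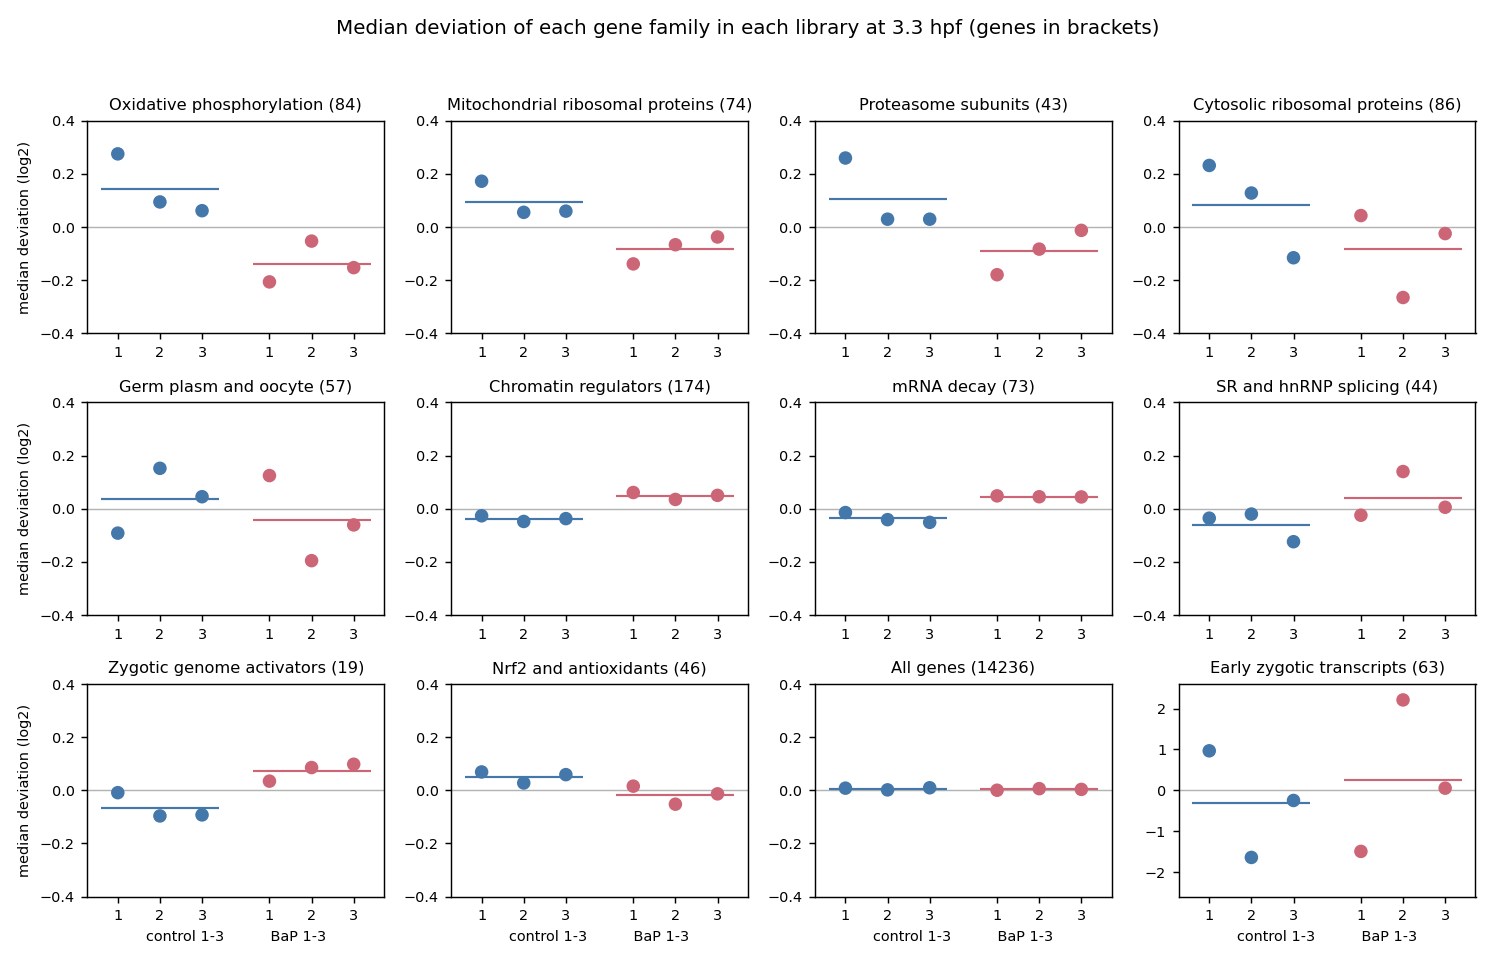
Each panel plots, for 1 gene family, the median over its genes of the log2 deviation from the gene's mean over 6 libraries (y axis) in each control (blue) and BaP library (red), with lines at the group means. The first 3 families and the Nrf2 and antioxidant genes lie lower in every BaP library, chromatin regulators, mRNA decay and zygotic genome activators lie higher, and early zygotic transcripts, drawn on a wider axis, spread from -1.64 to 0.97 in controls and from -1.49 to 2.21 in BaP libraries.

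Oxidative phosphorylation had the largest share of genes below 0 among the families of at least 10 genes. Its nuclear genes encode the subunits of the respiratory chain and ATP synthase, which are put together in mitochondria that the embryo inherits from the egg. Their library medians were 0.28, 0.09 and 0.06 in controls against -0.21, -0.05 and -0.15 in BaP libraries on the log2 scale, so every BaP library lay below every control. The median difference of -0.27 is a level of 0.832 times that of controls. In this family 13 genes were lower (against 2.4% of all genes) and 0 higher (2.41% of all genes) at an unadjusted p under 0.05, and the groups did not overlap for 16 lower genes and 1 higher gene, or 19% lower against 5.74% over all genes. The median stayed between -0.30 and -0.21 as each library was left out. It was -0.20 with control replicate 1 and BaP replicate 2 both left out and -0.31 with the early zygotic covariate. Over 75 genes in the RefSeq table it was -0.25.

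The direction held in each complex. In complex I, the NADH dehydrogenase, 34 of 37 genes were lower, with a median of -0.21. All 9 genes of complex III, which passes electrons to cytochrome c, were lower, with a median of -0.29. All 13 genes of complex IV, the oxidase that uses oxygen, were lower, with a median of -0.24, and so were 20 of 21 genes of ATP synthase and its partners, with a median of -0.35. The 4 genes of complex II, succinate dehydrogenase, were all below 0, by a median of -0.09, and none was separated between groups.

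NDUFB2, an accessory subunit of complex I, was at 19, 19.6 and 17.8 CPM in controls and at 11.7, 8.89 and 9.31 CPM in BaP libraries. ATP5B, the catalytic beta subunit of ATP synthase, was at 344, 323 and 282 CPM and at 249, 175 and 230 CPM. Uqcrb, a subunit of complex III, was at 12, 10.4 and 12.4 CPM and at 7.48, 6.48 and 6.30 CPM. In all of these genes every BaP library was below every control. Their log2 differences were -0.89 ± 0.19 (NDUFB2), -0.55 ± 0.14 (ATP5B) and -0.74 ± 0.21 (uqcrb, SE, n = 3 per group), with adjusted p of 0.907 by limma. Atp5a1, the alpha subunit of ATP synthase and the gene of the family with the highest CPM, was at 536, 392 and 400 CPM in controls and at 350, 445 and 377 CPM in BaP libraries, which overlapped, for a log2 difference of -0.17 ± 0.14.

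**Figure D3:**
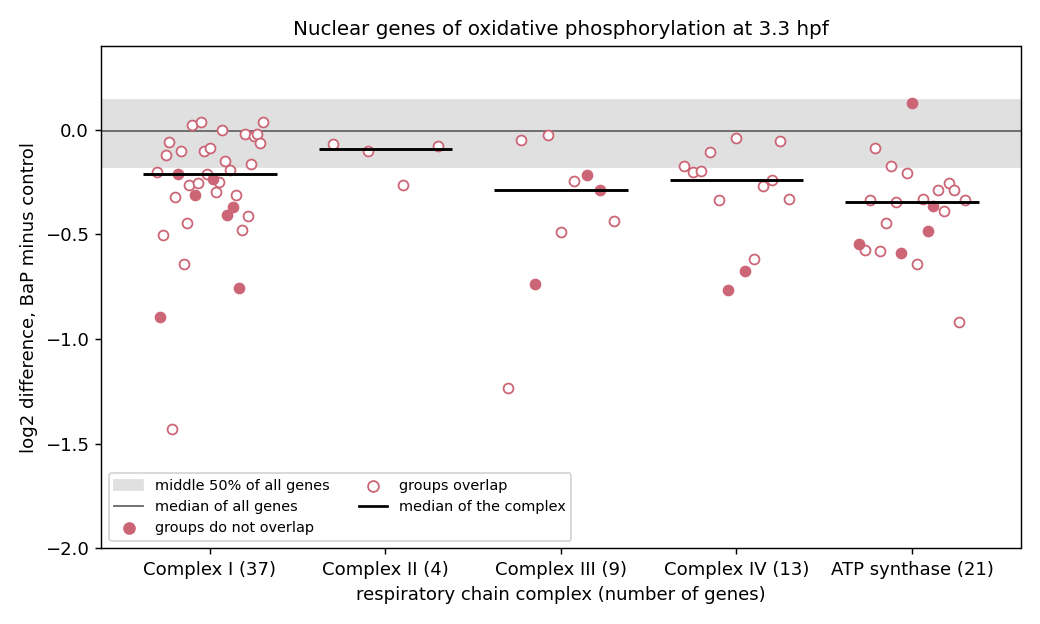
Each point is the log2 difference, BaP minus control, of 1 of 84 nuclear genes of oxidative phosphorylation, ordered by complex on the x axis, filled where the groups do not overlap. A black line marks the median of a complex, and the grey band holds the middle 50% of 14236 genes, from -0.18 to 0.14. Medians of complexes I, III and IV and of ATP synthase lie below that band, while complex II lies within it.

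Other families of mitochondrial and protein turnover genes lay the same way. Of 74 mitochondrial ribosomal protein genes, whose products translate the messages of mitochondrial DNA, 58 were lower and the median difference was -0.16. The groups did not overlap for 16 lower genes (21.6%, against 5.74% of all genes) and 0 higher genes (5.63% of all genes). Library medians were 0.17, 0.06 and 0.06 in controls against -0.14, -0.07 and -0.04 in BaP libraries. Mrpl12, of the large subunit, was at 55.6, 41.1 and 48.8 CPM in controls and at 31.6, 37 and 35.4 CPM in BaP libraries, a log2 difference of -0.47 ± 0.15 that did not pass. Mrpl46 and mrpl37, of the same subunit, had log2 differences of -0.47 ± 0.17 and -0.53 ± 0.21, and mrps30, with the highest CPM of the family, one of 0.08 ± 0.12.

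Of 43 proteasome genes, 38 were lower, with a median of -0.18. The groups did not overlap for 8 lower genes (18.6%, against 5.74% of all genes) and 0 higher genes (against 5.63%). The library medians of 0.26, 0.03 and 0.03 in controls against -0.18, -0.08 and -0.01 in BaP libraries did not overlap. But control 1 set much of the gap, and without it the median was -0.10. With control replicate 1 and BaP replicate 2 both left out, it was -0.07. Psmd2, a scaffold of the proteasome's regulatory particle, was at 100.1, 91.3 and 81.1 CPM in controls and at 61.2, 80.3 and 68.9 CPM in BaP libraries, and its near copy PSMD2 (1 of 2), which may share its reads, had a like log2 difference of -0.40 ± 0.17. Psma4, of the core ring, had one of -0.61 ± 0.25, and psmc3, an ATPase subunit with the highest CPM of the family, one of -0.06 ± 0.09. Genes of glycolysis and the citric acid cycle were lower in 31 of 40, by a median of -0.16 with overlapping library medians, and by -0.09 without control replicate 1.

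Cytosolic ribosomal protein genes were lower in 81 of 86, by a median of -0.16, yet this family was less stable. Its library medians of 0.23, 0.13 and -0.12 in controls against 0.04, -0.26 and -0.02 in BaP libraries overlapped. The groups did not overlap for 5 lower genes, a share of 5.81% that is near the 5.74% of all genes. The median was -0.06 without BaP replicate 2, -0.25 without control replicate 3 and 0.02 with control replicate 1 and BaP replicate 2 both left out. Rpl39 was at 77.8, 57.5 and 58.2 CPM in controls and at 43.9, 47.8 and 53.2 CPM in BaP libraries, and its groups did not overlap, for a log2 difference of -0.40 ± 0.15 that did not pass. Rplp1 had one of -0.55 ± 0.22, rpl13a one of -0.48 ± 0.21 and rpl12, the highest in CPM, one of -0.17 ± 0.20, and their groups overlapped.

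Families that act on chromatin and on RNA lay on the other side of 0, by less. Of 174 genes of chromatin remodelers and histone modifiers, 123 were higher in BaP, with a median of 0.07, and with CPM as deposited 104 were higher and 70 lower, with a median of 0.0445. At an unadjusted p under 0.05 by limma there were 11 higher genes (6.32%) and 0 lower genes (against 2.4% of all genes). The share of higher genes was 2.41% over all genes and 5.16% over the 20% of genes with the highest average level. Library medians were -0.03, -0.05 and -0.04 in controls against 0.06, 0.03 and 0.05 in BaP libraries, a gap small in size but wider than the spread within a group. Arid1ab, a subunit of SWI/SNF remodelers, was at 619, 616 and 586 CPM in controls and at 710, 777 and 724 CPM in BaP libraries, a log2 difference of 0.28 ± 0.06. Setd2, a histone H3 lysine methyltransferase, was at 432, 403 and 421 CPM and at 507, 474 and 554 CPM. Ep300b, a histone acetyltransferase that takes part in genome activation, was at 266, 237 and 228 CPM and at 297, 304 and 289 CPM. These last 2 genes were chosen after their values were seen, and every BaP library lay above every control in each, with adjusted p of 0.907 by limma.

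Splicing proteins of the SR and hnRNP families were higher in 40 of 44 genes, with a median of 0.10 and overlapping library medians, and the median was 0.05 without BaP replicate 2. Genes of messenger RNA decay were higher in 51 of 73, with a median of 0.07 that was 0.0353 with CPM as deposited, and library medians of -0.01, -0.04 and -0.05 in controls against 0.05, 0.05 and 0.04 in BaP libraries did not overlap. EIF2C2, the Argonaute that carries miRNAs such as those that clear maternal transcripts, was at 332, 378 and 383 CPM in controls and at 448, 468 and 456 CPM in BaP libraries. Btg4, an adaptor of the deadenylase that acts on maternal mRNA, went against its family, at 288, 352 and 269 CPM and at 255, 220 and 226 CPM, as chosen after values were seen. The log2 differences of 0.33 ± 0.08 (EIF2C2) and -0.37 ± 0.12 (btg4) did not pass.

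The listed activators of the zygotic genome were higher in 16 of 19 genes, with a median of 0.14, and their library medians did not overlap. Without BaP replicate 2 that median was 0.09. Nanog was at 1439, 1495 and 1324 CPM in controls and at 1472, 1763 and 1619 CPM in BaP libraries. Pou5f1 was at 957, 1100.0 and 956 CPM and at 1132, 1121 and 1086 CPM. Sox19b, the maternal SoxB1 gene, was at 815, 819 and 743 CPM and at 845, 573 and 821 CPM. All of these groups overlapped, and the log2 differences of 0.19 ± 0.08 (nanog), 0.15 ± 0.07 (pou5f1) and -0.11 ± 0.15 (sox19b) did not pass. These names were taken for their role, and the list also holds sox3, mych and mycn, whose levels followed early zygotic RNA.

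Of 57 listed transcripts of the germ plasm and oocyte, 37 were lower and 20 higher, and library medians overlapped. The groups did not overlap for 7 lower genes (12.3%, against 5.74% of all genes) and 2 higher genes (3.51%, against 5.63%). At an unadjusted p under 0.05 by limma, 5 were lower (8.77%, against 2.4% of all genes) and 0 higher (against 2.41%). The family had a median of -0.13 that was -0.01 without control replicate 2, -0.21 without BaP replicate 1 and -0.07 with the early zygotic covariate. Ccnb1, the maternal B cyclin that drives cleavage divisions, was at 1514, 1772 and 1518 CPM in controls and at 1907, 1501 and 1617 CPM in BaP libraries, and ccnb2 had a log2 difference of 0.02 ± 0.10, which turned to -0.01 with CPM as deposited. Buc, which organizes the germ plasm, was at 786, 835 and 818 CPM and at 873, 577 and 707 CPM, and overlapped. The gene of the list with the smallest p was bmp15, an oocyte growth factor, at 84.4, 90.2 and 82.6 CPM in controls and at 66.5, 52.1 and 48.7 CPM in BaP libraries. Every BaP library was lower, and the log2 difference of -0.63 ± 0.14 had an adjusted p of 0.907 by limma. Among genes not listed at 96 hpf, the median difference over 1436 genes was -0.03, against 0.00 over the 12800 also listed there, and it turned to 0.04 without BaP replicate 1.

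Of 15 names of targets of the AhR, through which BaP acts in later stages, 6 were listed. All 6 had a log2 difference below 0, where 50.8% of all genes did, with a median of -0.22. The groups of each overlapped, but only 11.4% of all genes had groups that did not, so 6 genes say little here. The median ran from -0.43 without BaP replicate 1 to -0.12 without BaP replicate 3, and the library medians of 0.06 and 0.17 in BaP 1 and BaP 2 stood against -0.50 in BaP 3. Tiparp, an ADP-ribosyltransferase, was at 13.1, 16.1 and 16.4 CPM in controls and at 10.3, 14.4 and 15.9 CPM in BaP libraries. Nqo1, a quinone reductase, was at 14.01, 10.97 and 10.95 CPM and at 10.1, 11.6 and 7.08 CPM. Cyp1a, the cytochrome P450 most used as a sign of AhR activity, was at 1.75, 1.71 and 0.823 CPM in controls and at 0.80, 1.65 and 1.75 CPM in BaP libraries. Its log2 difference of -0.02 had a 95% interval from -0.91 to 0.87, so an induction beyond that upper bound is outside the interval. The interval is on log2(CPM + 0.5), which understates fold changes of a gene this low, so the bound on CPM itself is wider. Cyp1d1, of the same family, was at 2.14, 3.69 and 8.01 CPM and at 8.36, 10.02 and 0.268 CPM, with an interval from -2.47 to 2.2. Ahrrb, a repressor of the receptor, nqo1, tiparp and foxq1b, a forkhead factor, had log2 differences of -0.26 ± 0.39 (ahrrb), -0.33 ± 0.25 (nqo1), -0.18 ± 0.23 (tiparp) and -0.31 ± 0.77 (foxq1b). The signs of cyp1a, cyp1d1, foxq1b and tiparp turned when single libraries were left out.

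The receptor itself was present. Ahr2, the main receptor for such compounds in zebrafish, was at 41.2, 28.2 and 39 CPM in controls and at 38.6, 52.0 and 84.7 CPM in BaP libraries, and the groups overlapped, for a log2 difference of 0.63 ± 0.29. Its partner arnt2 was at 74.8, 63.2 and 72.6 CPM and at 83.5, 95.6 and 74.1 CPM. Both were named for their role. Over 16 genes of the receptor, its partners and its chaperones, 9 were above 0 (where 49.2% of all genes were) and 0 had groups that did not overlap (against 11.4% of all genes). The median of 0.01 ran from -0.03 without control replicate 2 to 0.03 without control replicate 3.

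Ccng1, cyclin G1, was at 643, 659 and 656 CPM in controls and at 721, 809 and 780 CPM in BaP libraries. It was higher in every BaP library, by a log2 difference of 0.24 ± 0.07 that did not pass. Cdkn1a, an inhibitor of cyclin-dependent kinases, was at 5.54, 0.165 and 0.329 CPM and at 0.20, 21.1 and 1.21 CPM, and followed early zygotic RNA with a slope of 1.39 and an adjusted p of 0.0155 by limma.

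Families tied to the handling of BaP and to DNA damage were mixed. DNA repair genes were lower in 56 of 79, with a median of -0.10, and library medians overlapped. The median was -0.04 without control replicate 2 and -0.14 without BaP replicate 1. Genes of the Nrf2 pathway and other antioxidants, which respond to oxidative stress, were lower in 29 of 46, by a median of -0.10. That median was -0.05 without BaP replicate 3. Library medians did not overlap by a narrow margin, with control 2 at 0.028 and BaP 1 at 0.016. At an unadjusted p under 0.05 by limma, 3 genes were higher (6.52%, against 2.41% of all genes) and 3 lower (6.52%, against 2.4%). The lower side was not seen in the Nrf2 genes of longer span, described below. Within them the glutathione peroxidases went both ways. Gpx4b was at 52.9, 33.8 and 48.1 CPM in controls and at 27.6, 27.5 and 22.7 CPM in BaP libraries, while gpx1b was at 7.34, 9.08 and 6.09 CPM and at 12.2, 10.1 and 12.01 CPM. Both were chosen after their values were seen, and neither passed. Conjugation enzymes, which attach water-soluble groups to BaP products, were lower in 20 of 30, by a median of -0.13 without overlap of library medians. That median was -0.08 without control replicate 1 and -0.05 with control replicate 1 and BaP replicate 2 both left out. Cytochrome P450 genes outside family 1 were lower in 8 of 15, by a median of 0.00. Genes of DNA methylation and one-carbon metabolism were higher in 23 of 40, by a median of 0.03 that turned to -0.01 without BaP replicate 3. Dnmt1, the maintenance methyltransferase, was named for its role and was at 1183, 1903 and 1483 CPM in controls and at 1751, 1233 and 1617 CPM in BaP libraries, with overlapping groups and a log2 difference of 0.02 ± 0.19.

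Tubulins and actins, the proteins of the cytoskeleton, were lower in 29 of 38 genes, with a median of -0.11 and library medians that did not overlap. Their groups did not overlap for 3 lower genes (7.89%, against 5.74% of all genes) and 0 higher genes (against 5.63%). The median was -0.07 without control replicate 1. ABC transporters, which pump compounds out of cells, were higher in 21 of 37 genes. Their library medians did not overlap, but the median of 0.02 was small, turned to -0.01 with CPM as deposited and was 0.09 without BaP replicate 1. Sox, Fox and homeobox regulators were higher in 60 of 94 genes, with a median of 0.13 that ran from 0.05 without control replicate 2 to 0.23 without BaP replicate 1. Solute carriers were higher in 133 of 241 genes and zinc finger genes in 117 of 198, with medians of 0.03 and 0.04 that were 0.0053 and 0.0037 without BaP replicate 3, and CPM as deposited gave 0.0044 for solute carriers. The families of translation factors, tRNA synthetases, ribosome biogenesis, ubiquitin conjugation, cytosolic chaperones, sterol synthesis, the core spliceosome, histones, replication, cyclins, mitosis, yolk handling, cell adhesion, nuclear import, vesicle transport and Mediator had medians between -0.09 and 0.10 and overlapping library medians.

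Single genes with the smallest p also failed the adjustment. Jam3b, a junctional adhesion molecule of muscle precursors, had the smallest unadjusted p, at 25.7, 24 and 32.1 CPM in controls and at 54.5, 51.2 and 50.8 CPM in BaP libraries. Hspa5, the endoplasmic reticulum chaperone BiP, was at 824, 748 and 695 CPM and at 436, 361 and 537 CPM. The log2 differences of 0.93 ± 0.15 (jam3b) and -0.78 ± 0.14 (hspa5) had adjusted p of 0.907 by limma. Over the whole family of 40 endoplasmic reticulum chaperone genes the median was smaller in size, at -0.11, with 28 of them lower (where 50.8% of all genes were). That median was -0.02 without BaP replicate 3 and -0.15 without BaP replicate 1.

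Further genes higher in every BaP library were f2rl1.2, a protease-activated receptor, with a log2 difference of 1.1 ± 0.23, the exchange factors dock11 (0.42 ± 0.09) and TRIO (1 of 2) (0.45 ± 0.10), the chromatin gene baz2a (0.35 ± 0.08) and the Rab regulator tbc1d9 (0.42 ± 0.10). Further genes lower in every BaP library were hdhd3 (-0.86 ± 0.19), the autophagy enzyme apg3l, now atg3 (-0.49 ± 0.11), the endocytic adaptor dab2 (-0.60 ± 0.13), the ubiquitin ligase subunit fbxw11b (-0.43 ± 0.10) and the fatty acid elongase elovl7b (-0.46 ± 0.10). None of these passed the test. Each kept its sign under every alternative run on the Ensembl gene table. They were picked for groups that do not overlap, so leaving out libraries could hardly turn a sign. The kept signs therefore add no support.

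**Figure D4:**
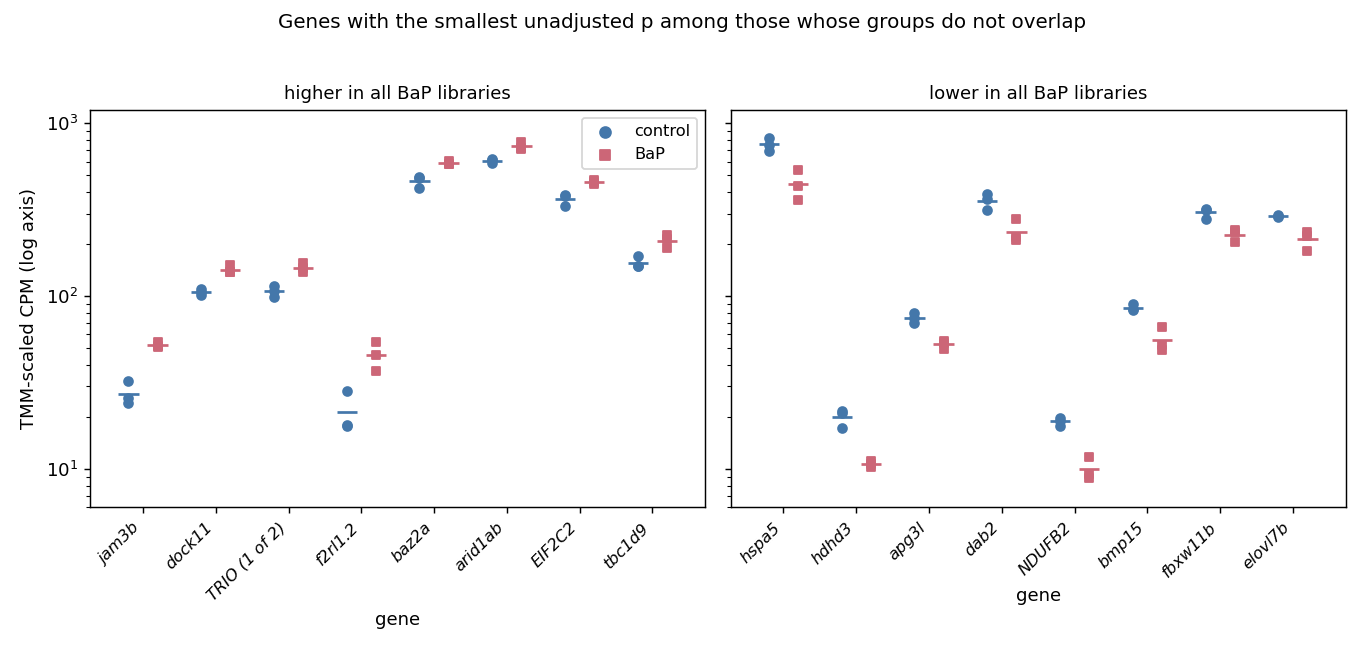
Points are scaled CPM on a log axis in 3 control (blue circles) and 3 BaP libraries (red squares), with lines at the group means, for 8 genes higher and 8 lower in every BaP library that have the smallest unadjusted p. Hspa5, from 695 to 824 CPM in controls and from 361 to 537 CPM in BaP, and jam3b have the smallest unadjusted p of these genes by limma.

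Direction moved with 2 properties of genes that are not functional classes. Genomic span, known for 82.6% of genes from the current reference GRCz12tu, was 1 of them. Genes were ranked by span into classes of 20% each. In the shortest class the groups did not overlap for 218 lower and 75 higher genes, and in the longest class for 77 lower and 183 higher genes, with medians of -0.08 and 0.05. Level was the other property, ranked the same way by average log2 CPM. The highest class had 353 higher and 72 lower genes without overlap, and the middle class 103 higher and 235 lower. By span, library medians did not overlap in the shortest class, the longest class and the class next to the longest. By level they did not overlap in the middle class. They overlapped in the other classes of span and level. Of the genes with a span, 53 of 81 for oxidative phosphorylation, 44 of 73 for mitochondrial ribosomal proteins, 71 of 85 for cytosolic ribosomal proteins and 12 of 42 for the proteasome were in the shortest class. The 9 oxidative phosphorylation genes in the 3 classes of longest span were all below 0, with a median of -0.19, where the median of all 7059 genes of those classes was 0.02. In the same classes the median was -0.09 over 18 mitochondrial ribosomal genes and -0.19 over 13 proteasome genes. It was -0.07 over 13 tubulin and actin genes and -0.02 over 9 conjugation enzyme genes. Over 22 genes of the Nrf2 family it was 0.09, with 10 of them below 0. In the 2 classes of shortest span the Nrf2 and conjugation medians were -0.19 and -0.18. Of the chromatin genes 90 of 174 were in the class of highest level, of the SR and hnRNP genes 32 of 44, of the messenger RNA decay genes 45 of 73 and of the zygotic genome activators 14 of 19. The share of chromatin genes higher without overlap, 12.1%, was close to the 12.4% of that class, and the shares were 13.6% for SR and hnRNP genes, 17.8% for messenger RNA decay and 15.8% for the activators. In that class 62.4% of all genes were above 0. The share of oxidative phosphorylation genes lower without overlap, 19%, stood above the 9.26% of the shortest class and the 8.25% of the middle class by level. The part of span, level and depth in these differences was not tested.

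**Figure D5:**
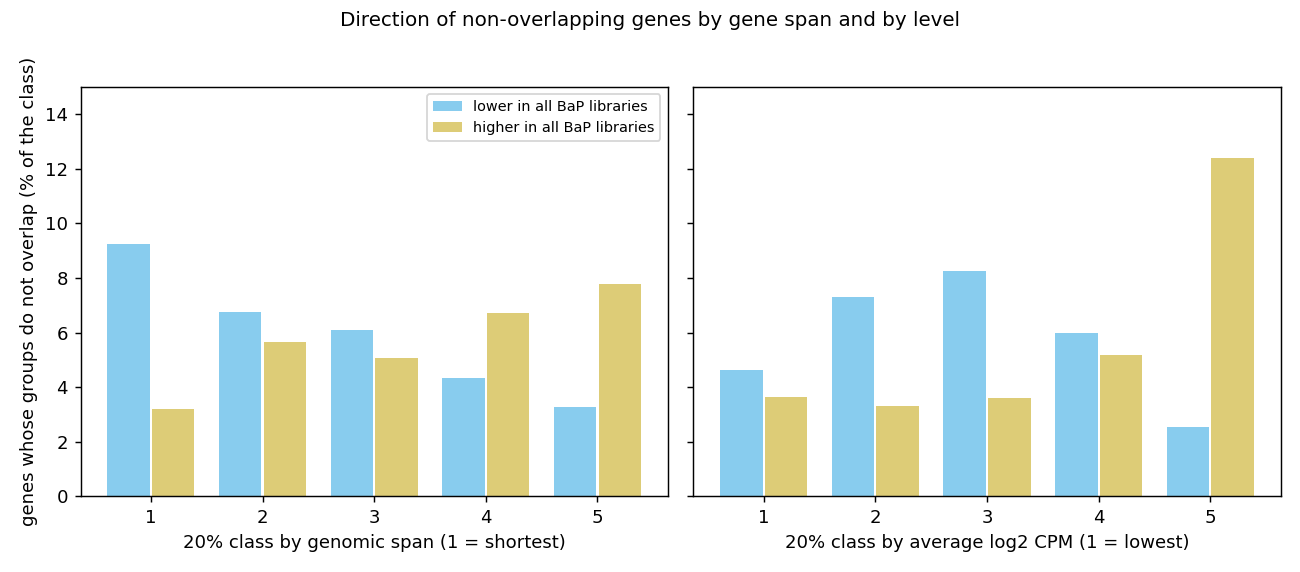
Bars give the percent of genes in each 20% class, by genomic span on the left and by average log2 CPM on the right, whose groups do not overlap, lower in BaP in blue and higher in yellow. Lower genes go from 9.26% in the shortest to 3.27% in the longest class, and higher genes reach 12.4% in the class with the highest level.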

How the data were processed

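Values are deposited as CPM, which the authors brought to an equal total per column without length correction. Per the submitters' processing notes TopHat, Partek, edgeR and the build Zv9 were used, without versions or roles. Low genes had been removed before deposit, since no listed gene exceeds 1 CPM in fewer than 3 libraries. Exactly 3 libraries passed for 465 genes, among them only the 3 controls for 11 and only the 3 BaP libraries for 12. Depth was read from the CPM step of 1 read. Between 35.0% and 40.1% of all values, and 74.6% to 82.2% of those up to 20 reads, were whole multiples of it (tolerance 0.05 reads), so whole reads could not be recovered and no count test was run.

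TMM factors (0.972 to 1.03) rescaled the CPM. They were computed with code written for this work, which trims 30% of log ratios and 5% of levels and weights genes by reads estimated as CPM times depth. Then limma 3.58.1 in R 4.3.3, with a trend, was fitted to log2(CPM + 0.5), with Benjamini-Hochberg adjustment over all genes at 0.05. Fold changes on this scale understate low genes. Errors are SE of the log2 difference. The median SE was 0.22. The method was tested on simulated data whose noise was drawn apart for each gene. Those data lack the differences between libraries that many genes share here. The simulation therefore cannot show how the method behaves under them. Families were matched by symbol, and 11802 genes had a current name in the reference tables. There were 0 unmapped columns.

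The members, the families and the lists were chosen with earlier results of these data known. Named genes were all listed AhR targets, the 8 highest and 8 lowest non-overlapping genes by p with average log2 CPM above 3, the 3 genes of smallest p and the most abundant of 6 families, and 5 further maternal and zygotic genes by level or range. Others are marked in the text. Alternatives were RLE scaling, CPM as deposited, pseudocounts of 0.1 and 2, a 5 CPM minimum, RefSeq genes, Ensembl transcripts, blocking by replicate number, robust or trend-free spread, the early zygotic covariate and each library left out. The RefSeq columns are lettered, so libraries could not be matched to those of the Ensembl table. Per the labels, libraries were made with the TruSeq kit. Values of 1 of the 43 families, which is among the 11 whose library medians did not overlap, are not reported here. Named genes were followed only in the Ensembl gene table, not in the RefSeq and transcript tables.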

Additional observations from a re-analysis of the deposited data

How the results depend on the processing

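The count of called genes ran from 0 to 1 as each library was left out and was 0 under every other alternative, the early zygotic covariate included. Unadjusted calls ranged from 466 to 826, other than 1203 without BaP replicate 1, 1029 in the transcript table and 1049 with a crossed replicate block. That crossing, and leaving out both libraries with most early zygotic RNA, were chosen after seeing the data. Same-numbered libraries did not deviate together (r of -0.44, -0.43 and -0.01 across genes), while control 1 with BaP 2 gave 0.47 and control 2 with BaP 1 gave 0.39. Those pairs are also the libraries with most and with least early zygotic RNA, and the labels do not say what the numbers share. A replicate block gave 0 called genes, a smallest adjusted p of 0.985 and 503 unadjusted calls. The split at an unadjusted p under 0.05, 343 higher and 342 lower, became 260 and 441 without a trend and 220 and 476 with CPM as deposited.

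Of 817 alternatives for family medians, 57 moved the median by more than that family's own spread between replicates. Replicate blocks and a robust or trend-free spread could not move it. The bound is wider for families that vary more between libraries, so these counts do not rank families by stability. The early zygotic list had 0 such moves, although its median ran from -0.39 to 1.40. Among the 57 moves were 6 for the Nrf2 family and 5 each for chromatin, messenger RNA decay and cholesterol synthesis. Conjugation enzymes, DNA methylation and ABC transporters had 4 each. With CPM as deposited the median was 0.0353 for messenger RNA decay and 0.0445 for chromatin. With the covariate messenger RNA decay was at 0.0848, and in the RefSeq table chromatin was at 0.0581. As single libraries were left out, the median ran from 0.0597 to 0.0841 for messenger RNA decay, from 0.0717 to 0.0914 for chromatin and from 0.0909 to 0.17 for the activators of the zygotic genome.

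Of 847 alternatives for named genes, 825 kept the sign and 22 turned it, in 11 genes. Replicate blocks and a robust or trend-free spread could not turn a sign. Leaving out libraries could hardly do so for genes whose groups did not overlap. As single libraries were left out, the log2 difference ran from -0.26 to 0.23 for cyp1a, from -0.80 to 1.08 for cyp1d1, from -0.92 to 0.42 for foxq1b and from -0.30 to 0.0027 for tiparp. It ran from -0.0239 to 0.10 for otx1b, from -0.0357 to 0.15 for ccnb1 and from -0.0333 to 0.14 for ccnb2. The widest ranges were -0.89 to 3.00 for aplnrb, -0.0617 to 3.76 for tbx16 and -0.14 to 3.64 for asb11. With both libraries of most early zygotic RNA left out, cyp1a was at 0.000511 and psmc3 at 0.0125. A pseudocount of 2 put cyp1d1 at 0.0863, the covariate put aplnrb at -0.10, and CPM as deposited put ccnb2 at -0.0065. The cause was not tested. A single read was worth 0.0451 to 0.0573 CPM, so genes near 1 CPM, such as cyp1a, rest on few reads.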
